A study of Mus musculus with 18 samples.

Results

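The 9 genes described here carry out glucose uptake, glycolysis and glycogen turnover in the liver, and they were picked by symbol (Slc2a2, Gckr, Pfkfb1, Pklr, Gys2, Pygl, Ppp1r3b, Ppp1r3c and Ppp1r3g) from the 19057 genes of the deposited expression table. Their levels came from RNA-seq of 18 mouse livers, taken from ICR mice at 10 weeks of age, with 3 libraries in each of 6 groups. Con mice received regular chow and saline. HS mice ate a high-fat diet from 3 to 10 weeks and were given 1 injection of streptozotocin (STZ), a toxin of the insulin-making beta cells, at 85 mg/kg at 5 weeks. A10-FMT and Con-FMT mice were given the same diet, also to 10 weeks, and the same STZ. From 5 to 7 weeks they also received gut microbiota from donors that had been given alginate oligosaccharide (AOS) at 10 mg/kg or from control donors. A10 mice (AOS at 10 mg/kg) and HS+A10 mice (diet, STZ and AOS at 10 mg/kg) are known from the sample labels alone. Each donor group's gut content was pooled before transfer, so the recipients of a group share 1 inoculum. Diet and STZ were always given together, so their parts cannot be told apart.

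The liver takes up glucose through GLUT2, phosphorylates it, and sends it down glycolysis or into glycogen. Glycogen is built by glycogen synthase and broken down by glycogen phosphorylase, and protein phosphatase 1, held on the glycogen particle by targeting subunits, switches synthase on and phosphorylase off. Insulin, glucose, feeding and the circadian clock are all known to act on these genes in liver. A transcript level does not give the activity of enzymes that are switched by phosphorylation.

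Expression is given as RPKM, the authors' read number scaled by gene length and by mapped reads, and a change as the difference of mean log2(RPKM + 1) between groups. The log2 scale with 1 added understates the change of low genes. The test was limma on the 10204 genes whose mean over the 18 libraries reached 1 RPKM, and calls were made where the p adjusted over all of these genes fell under 0.05. Of the 9 genes 8 passed this filter, and Ppp1r3g, with a mean of 0.72 RPKM, did not. Labels do not say more of the replicates than that they are separate samples, so p-values measure the spread between these samples.

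In mm10 coordinates (GRCm38, GENCODE M21) Slc2a2 lies at chr3:28697903-28731359 on the plus strand and Pklr at chr3:89136142-89146784 on the plus strand. Gckr lies at chr5:31297443-31327314 (plus), Pfkfb1 at chrX:150588229-150643878 (plus), and Gys2 at chr6:142422613-142473109 (minus). Pygl lies at chr12:70190811-70231488 (minus), Ppp1r3b at chr8:35375739-35388139 (plus), Ppp1r3c at chr19:36731731-36736653 (minus) and Ppp1r3g at chr13:35958839-35970388 (plus). All 9 are protein-coding. Pklr overlaps the 3' end of Hcn3, and Pfkfb1 the start of Apex2, both on the opposite strand, Slc2a2, Pygl, Ppp1r3b and Ppp1r3g overlap antisense noncoding genes, and the counting is not stated to use strand.

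RefSeq promoter windows of GRCm38.p6 were held for 7 of the 9 genes, 11 windows in all, and none was held for Gys2 or Ppp1r3b. The 250 bases before each start were searched on both strands for an E-box (CACGTG), which the clock factors bind, a D-box (TTATGTAA), which DBP and TEF bind, a cAMP element (TGACGTCA), a forkhead site (TGTTTAC), only a part of an HNF1 site (GTTAATNA, labelled HNF1 site below), an HNF4 site (CAAAGTCCA), and the pair CACGNG and CNCGTG with 5 bases between them, a pattern like the carbohydrate response element. The following 3 windows hold a match, shown in capitals, and are printed because the levels of their genes are described below. The D-box, cAMP element, forkhead and HNF4 letters were in none of the 11 windows.
Pklr, downstream start, chr3:89136373-89136622, plus strand, pair: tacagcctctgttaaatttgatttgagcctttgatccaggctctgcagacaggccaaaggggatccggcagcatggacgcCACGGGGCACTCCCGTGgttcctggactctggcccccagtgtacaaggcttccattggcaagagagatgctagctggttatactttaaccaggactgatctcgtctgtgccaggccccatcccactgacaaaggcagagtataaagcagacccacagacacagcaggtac
Ppp1r3c, chr19:36736605-36736854, minus strand, E-box: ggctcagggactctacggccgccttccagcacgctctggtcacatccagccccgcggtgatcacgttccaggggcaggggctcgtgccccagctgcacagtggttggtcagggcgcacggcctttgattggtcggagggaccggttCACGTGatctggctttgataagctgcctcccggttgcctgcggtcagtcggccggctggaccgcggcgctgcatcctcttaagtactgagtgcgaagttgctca
Gckr, chr5:31297313-31297562, plus strand, HNF1 site: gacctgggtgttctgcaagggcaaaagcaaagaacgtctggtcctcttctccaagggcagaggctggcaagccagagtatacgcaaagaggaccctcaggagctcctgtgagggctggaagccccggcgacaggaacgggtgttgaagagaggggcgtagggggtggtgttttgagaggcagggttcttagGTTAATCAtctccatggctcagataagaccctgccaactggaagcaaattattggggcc
The pair in the Pklr window spans bases -170 to -154 from the start, and 0.0396% of the 32851 windows of all genes hold such a pair. This window belongs to the downstream of the 2 Pklr starts, that of the liver enzyme, and the upstream start gives the red-cell enzyme. The E-box of Ppp1r3c lies at bases -104 to -99, and 6.02% of all windows hold this motif. The partial HNF1 site of Gckr lies at bases -59 to -52, and 2.33% of all windows hold such letters. A match is a description of these letters, and binding was not measured.

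Some libraries stood apart. Where Con replicates 1 and 2 differed by over 1.5-fold (1014 genes), Con replicate 3 fell between them in 90.9%, and A10 replicate 3 fell between A10 replicates 1 and 2 in 90.7% of 735 such genes, against 32.9% to 71.7% for the other 16 libraries. The same held for 9 of the 9 genes in Con and 8 of 9 in A10, so these libraries narrowed the spread of their groups. Whether they are independent of the other libraries of their group was not tested, and n = 3 for Con and A10 may count more samples than are independent. Without both, all differences of the 8 tested genes in HS against Con, HS+A10 against A10 and A10 against Con kept their sign, and 2 calls were lost, of Ppp1r3b and Pklr, whose values stand beside them. Con-FMT replicate 3 held pancreatic acinar markers at a sum of 19083.5 RPKM (14.06 to 50.16 in the other 17 libraries) and the insulin gene Ins2 at 29.4 RPKM. Summed blood markers ranged from 2885 to 10038 RPKM in HS and from 875 to 3618 RPKM in the other groups, hepatocyte markers were high in every library (sums of 32390 to 54852 RPKM), and muscle markers stayed at or under 2.22 RPKM. In bulk liver, fewer cells of a type and less RNA per cell cannot be told apart. The number of reads per library is unknown, and the steps of 32 genes near 1 read gave relative depths of 0.954 to 1.02.

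Under the deposited scale the median gene was 0.14 higher in HS than in Con, 0.16 lower in A10-FMT than in HS and 0.12 lower in Con-FMT than in HS (log2). Calls in HS against Con split into 1618 higher and 191 lower as deposited, and into 398 and 486 once every library was scaled to the same median. For A10-FMT against HS the split was 213 higher and 2145 lower as deposited, and 639 and 516 at the same median. For Con-FMT against HS it was 470 and 1943 as deposited, and 858 and 1240 at the same median. For A10-FMT against Con-FMT it was 686 and 1228 as deposited, and 1302 and 958 at the same median. For HS+A10 against HS it was 301 and 446 as deposited, and 579 and 356 at the same median, and for HS+A10 against A10 it was 1388 and 743, and 1243 and 1151. Changes of the 9 genes are therefore given on the deposited scale, with the value at the same median beside them where a call differs.

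The comparisons called between 0 and 3 of the 8 tested genes. In HS against Con 1 of 8 was called, lower, where 17.7% of all genes tested were called. In HS+A10 against A10, the same diet and STZ step in mice given AOS, 3 of 8 were called (1 higher, 2 lower), beside 20.9% of all genes. In A10-FMT against HS 2 of 8 were called, higher, beside 23.1%, and in Con-FMT against HS 2 of 8 (1 higher, 1 lower), beside 23.6%. In A10-FMT against Con-FMT 1 of 8 was called, lower, beside 18.8%. In HS+A10 against HS 1 of 8 was called, higher, beside 7.32%. In A10 against Con none of the 8 was called, beside 0.0686% of all genes (7 genes), and 2 of the 8, Slc2a2 and Gckr, had an unadjusted limma p under 0.05, as did 1418 of all 10204 genes. The interaction, the diet and STZ step with AOS minus the same step without it, called none of the 8 and 0.0098% of all genes, which is 1 gene, Dbp. Of the 8 genes 1, Gys2, had an unadjusted interaction p under 0.05, as did 1320 of all genes. With so few members these shares lie near those of all genes in most comparisons, and the comparisons that share HS, Con or A10 libraries are not independent. Groups without overlap were common among all genes tested. They were seen for 3 of the 8 genes in HS against Con (36.8% of all genes) and 5 in HS+A10 against A10 (43%). The numbers were 5 in A10-FMT against HS (37.4%), 4 in Con-FMT against HS (35%) and 3 in A10-FMT against Con-FMT (31.5%). They were 2 in HS+A10 against HS (27.4%) and 1 in A10 against Con (24.8%).

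**Figure D1:**
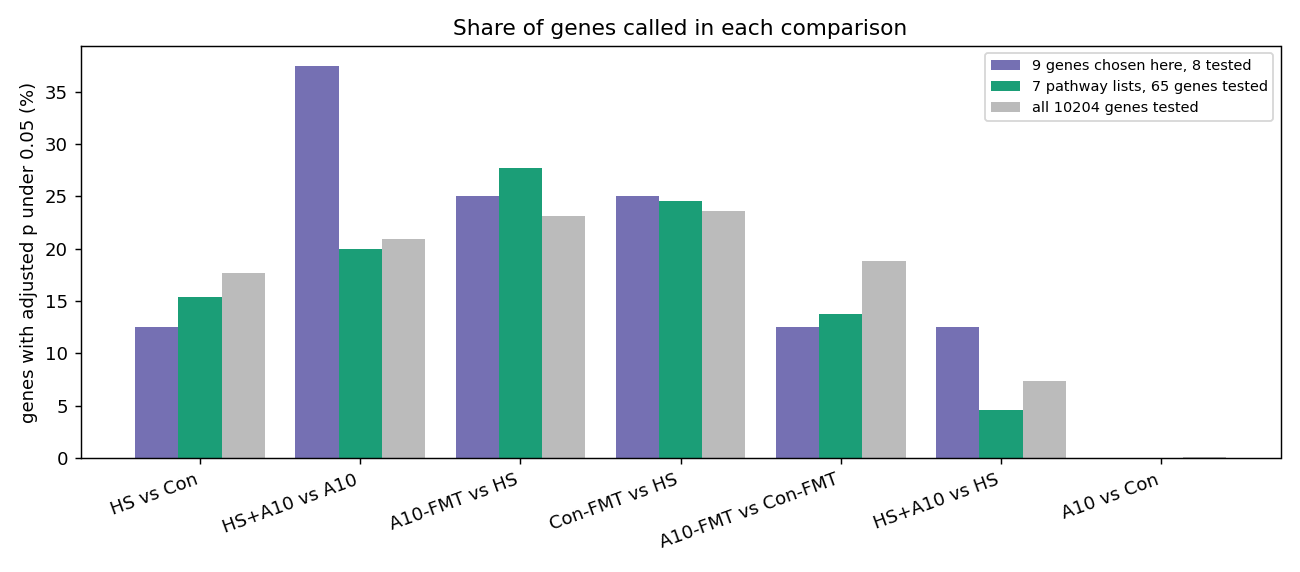
Share of genes with a limma adjusted p under 0.05 (y axis, %) in each comparison (x axis), for the 8 tested genes described here, for the 65 tested genes of 7 pathway lists and for all 10204 genes tested. Bars of the 3 sets stand near each other in most comparisons, with the 8 genes at 37.5% and all genes at 20.9% in HS+A10 against A10.

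Gys2, the liver glycogen synthase that adds glucose units to the growing chain, was called in more comparisons than any other of the 8 tested genes, 4 of 7. It stood at 26.3, 41.0 and 33.7 RPKM in Con and at 40.2, 34.4 and 34.9 RPKM in A10. It stood at 47.8, 42.9 and 37.9 RPKM in HS and at 134.9, 83.3 and 88.7 RPKM in HS+A10. In A10-FMT it was at 102, 96.2 and 90.8 RPKM and in Con-FMT at 77.1, 71.3 and 71.7 RPKM. Every library of HS+A10, A10-FMT and Con-FMT lay above every library of Con, A10 and HS. Means fell in the order HS+A10 (102 ± 28.4, SD, n = 3), A10-FMT (96.5 ± 5.81), Con-FMT (73.4 ± 3.21), HS (42.9 ± 4.93), A10 (36.5 ± 3.21) and Con (33.7 ± 7.37), and neighbours overlapped except A10-FMT with Con-FMT and Con-FMT with HS.

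Gys2 was 1.21 higher on the log2 scale in HS+A10 than in HS (SE 0.17, 95% interval 0.85 to 1.56, limma adjusted p = 0.00305), a ratio of means of 2.39. Against A10 the same group was 1.43 higher (SE 0.17, limma adjusted p = 6.71e-05). A10-FMT was 1.16 higher than HS (SE 0.17, limma adjusted p = 7.04e-04) and Con-FMT 0.77 higher than HS (SE 0.17, limma adjusted p = 0.00452). HS itself was 0.36 higher than Con (limma adjusted p = 0.144) and A10 0.13 higher than Con (limma adjusted p = 0.765), neither of them called. The difference of the diet and STZ step with and without AOS was 1.08 (95% interval 0.57 to 1.58, limma adjusted p = 0.117), and without HS replicate 1 it was 1.16 (limma adjusted p = 0.0435). A10-FMT and Con-FMT differed by 0.39 (95% interval 0.03 to 0.74, limma adjusted p = 0.117), which at the same median was 0.47 (limma adjusted p = 0.0450). In a fit of HS+A10 and HS alone the change of Gys2 had a limma adjusted p of 0.0599, and without Con and A10 replicates 3 its 4 calls remained. The exact permutation test of 3 libraries against 3 cannot go below p = 0.1, and Gys2 reached this value in the 4 called comparisons.

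**Figure D2:**
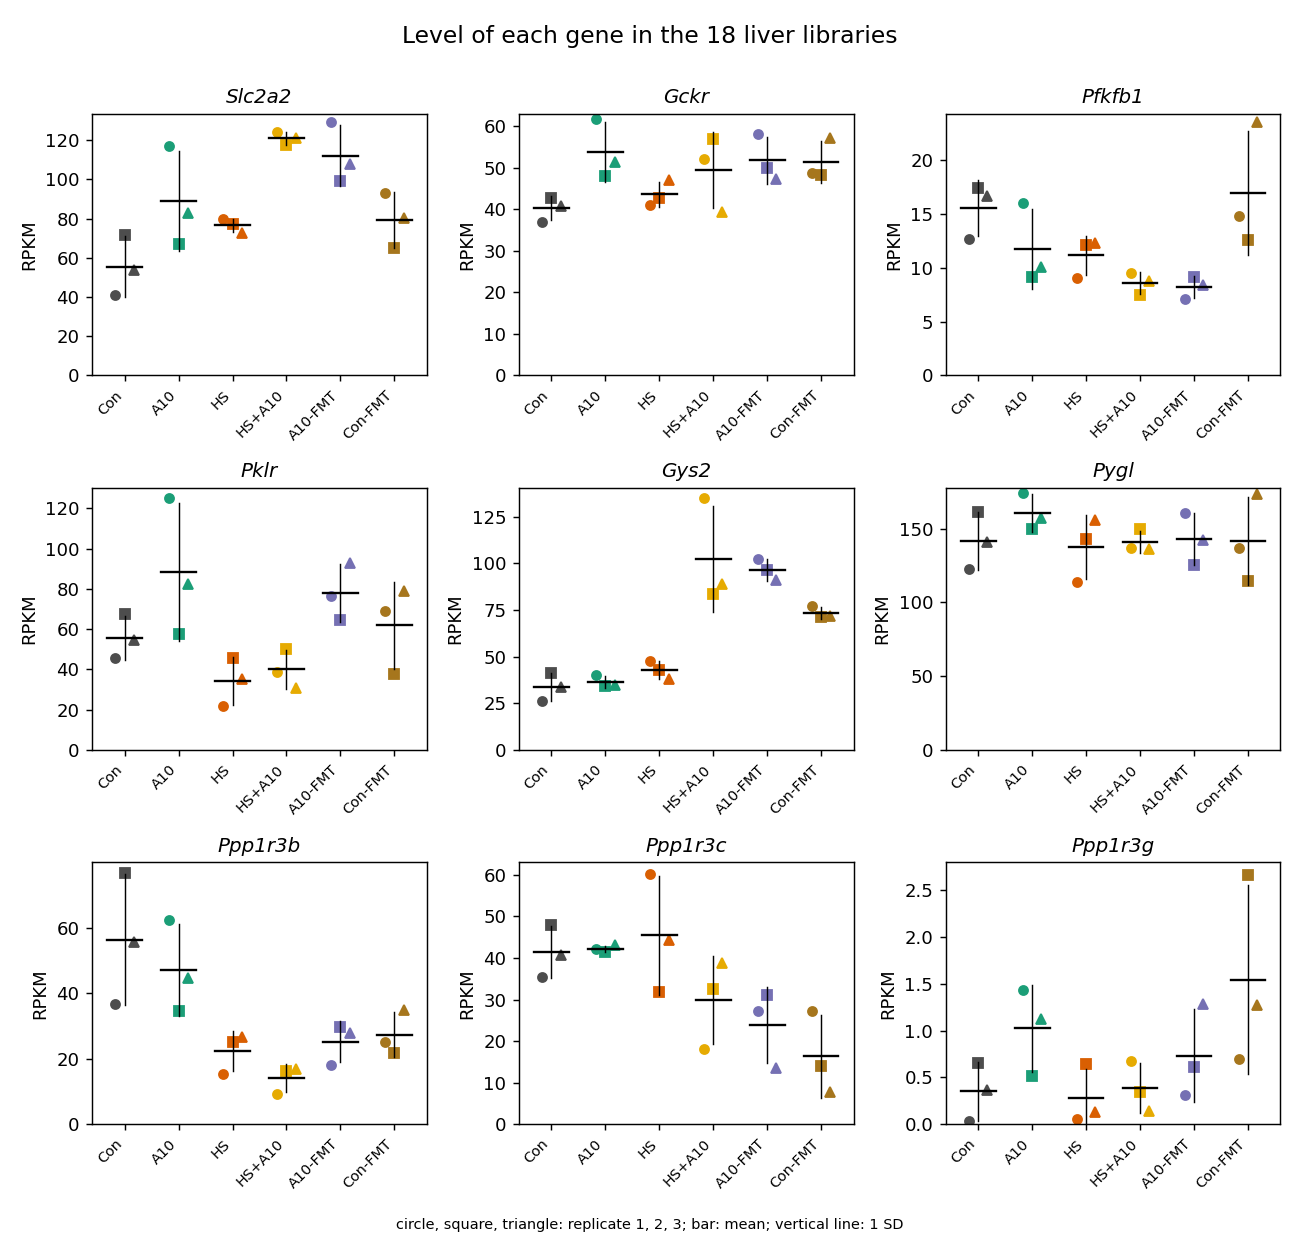
Level (y axis, RPKM, from 0) of each of the 9 genes in the 18 libraries by group (x axis); points are libraries, bars means and vertical lines 1 SD. Gys2 lies at 71.3 RPKM or more in every HS+A10, A10-FMT and Con-FMT library and at 47.8 RPKM or less in the rest, and Pygl lies between 114 and 174 RPKM throughout.

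Pygl, the liver glycogen phosphorylase that releases glucose-1-phosphate from glycogen, had the highest mean level of the 9 genes (144 RPKM over 18 libraries). It ranged from 114 to 174 RPKM over all libraries, and its group means from 138 ± 21.6 RPKM in HS to 160.4 ± 12.8 RPKM in A10 (SD, n = 3). The lowest library (113.8 RPKM) was HS replicate 1 and the highest (174.4 RPKM) A10 replicate 1, and all 6 groups overlapped with their neighbours in the order. Pygl was called in none of the 7 comparisons and was 0.04 higher in HS+A10 than in HS (95% interval -0.28 to 0.37), and its differences reached at most 0.18 in size (A10 against Con, 95% interval -0.14 to 0.51).

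The ratio of Gys2 to Pygl within a library, chosen after the values were seen, put the synthase beside the phosphorylase. It was 0.236 ± 0.020 in Con, 0.228 ± 0.00485 in A10 and 0.321 ± 0.0901 in HS (SD, n = 3). It was 0.732 ± 0.225 in HS+A10, 0.681 ± 0.0752 in A10-FMT and 0.533 ± 0.108 in Con-FMT. HS+A10 and A10-FMT lay above HS without overlap (exact permutation p = 0.1 each, the smallest possible), whereas Con-FMT replicate 3 at 0.414 lay below HS replicate 1 at 0.420 (exact permutation p = 0.2).

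**Figure D3:**
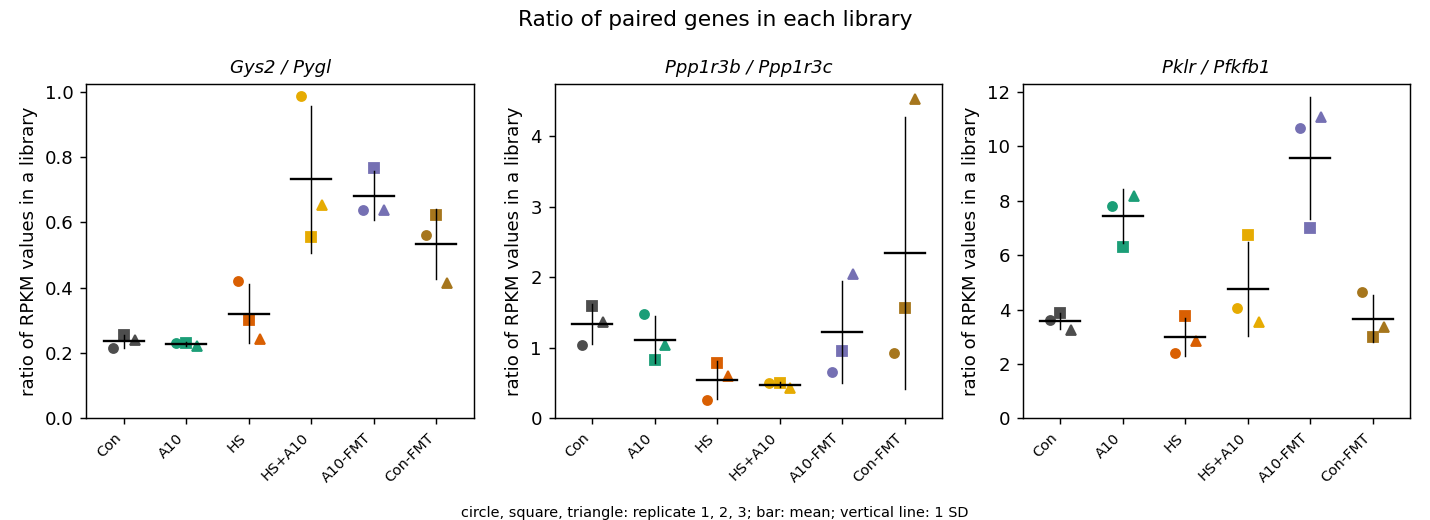
Ratios of RPKM values within each library (y axis, from 0) by group (x axis) for Gys2 over Pygl, Ppp1r3b over Ppp1r3c and Pklr over Pfkfb1; points are libraries, bars means and vertical lines 1 SD. The Gys2 to Pygl ratio is at most 0.254 in Con and A10 and between 0.414 and 0.986 in HS+A10, A10-FMT and Con-FMT.

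Most tested clock genes were called in the comparisons in which Gys2 was called, so values of Dbp and Arntl stand beside it. Dbp, a clock output factor, was at 0.64 RPKM in Con, 1.85 in A10 and 1.73 in HS, and at 65.8 RPKM in HS+A10, 77.9 in A10-FMT and 53.4 in Con-FMT (means, n = 3). Arntl, which codes for the core clock activator BMAL1, was at 11.7, 11.9 and 10.4 RPKM in the first 3 of these groups and at 2.11, 1.75 and 2.59 RPKM in the last 3. Neither gene overlapped between those sets of groups, the highest Dbp library of Con, A10 and HS being at 3.41 RPKM and the lowest of the others at 47.3 RPKM. Of 15 tested clock genes 13 were called in HS+A10 against HS (86.7%, beside 7.32% of all genes tested) and 13 in A10-FMT against HS (86.7%, beside 23.1%). There were 11 in Con-FMT against HS (73.3%, beside 23.6%) and 12 in HS+A10 against A10 (80%, beside 20.9%). The numbers were 4 in HS against Con (26.7%, beside 17.7%), 2 in A10 against Con (13.3%, beside 0.0686%) and 2 in A10-FMT against Con-FMT (13.3%, beside 18.8%). The clock genes called in HS against Con were Nr1d1 (2.71) and Nr1d2 (1.44), higher, and Cry1 (-0.77) and Npas2 (-0.59), lower (log2 changes). Those called in A10 against Con were Nr1d1 (2.45) and Nr1d2 (1.39), both higher. Con, A10 and HS thus differed among themselves in some clock genes, while Gys2 was called in neither comparison. The hour at which each liver was collected is not given in the sources used here, so collection time and group cannot be told apart, and the part of the clock in the Gys2 difference was not tested.

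**Figure D4:**
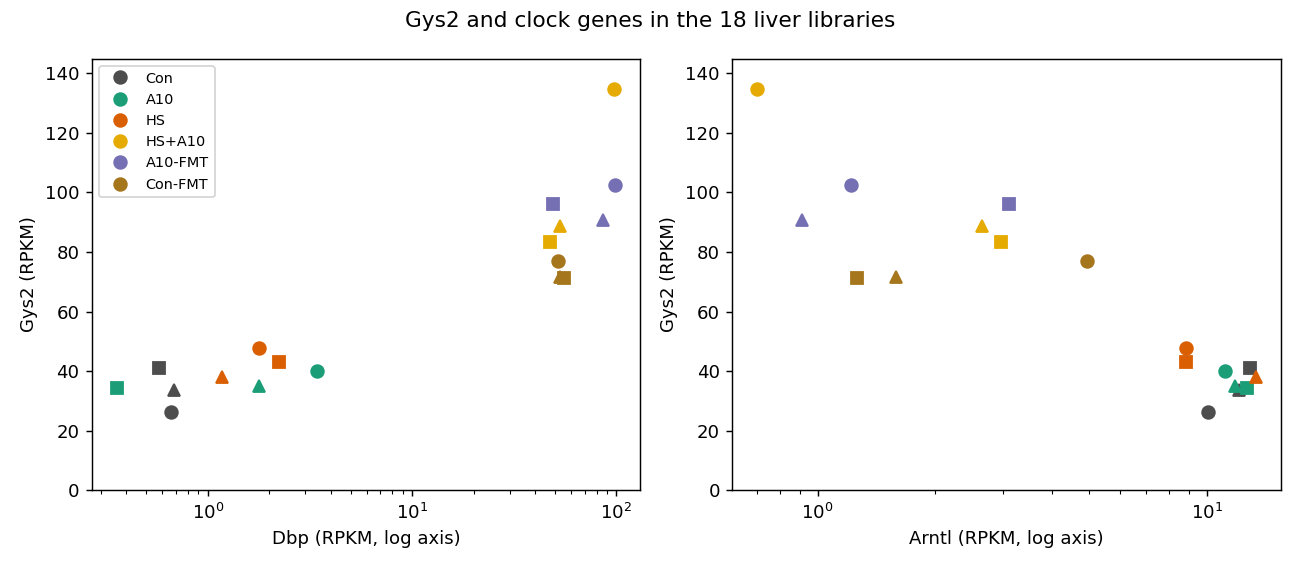
Gys2 level (y axis, RPKM, from 0) against Dbp and Arntl levels (x axes, RPKM, log scale) in the 18 libraries, coloured by group; circles, squares and triangles are replicates 1, 2 and 3. Libraries of HS+A10, A10-FMT and Con-FMT form a separate cluster with Dbp at 47.3 RPKM or more, and those of Con, A10 and HS one with Dbp at 3.41 RPKM or less.

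Ppp1r3b, the main glycogen-targeting subunit of protein phosphatase 1 in liver (G-L), was lower in the mice given diet and STZ. It stood at 36.7, 76.6 and 55.6 RPKM in Con and at 62.3, 34.5 and 44.7 RPKM in A10. It stood at 15.3, 25.1 and 26.6 RPKM in HS and at 9.09, 16.3 and 16.9 RPKM in HS+A10. In A10-FMT it was at 18.02, 29.8 and 27.8 RPKM and in Con-FMT at 25.2, 21.9 and 35.0 RPKM. HS lay wholly below Con, and HS+A10 wholly below A10, although Con and A10 libraries differed up to about 2-fold among themselves. The change was -1.27 in HS against Con (SE 0.31, 95% interval -1.94 to -0.61, limma adjusted p = 0.0139), a ratio of means of 0.397, and -1.68 in HS+A10 against A10 (SE 0.31, limma adjusted p = 0.00173), a ratio of 0.299.

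Microbiota transfer and AOS did not give a called change of Ppp1r3b within the diet and STZ groups. A10-FMT was 0.17 higher than HS (95% interval -0.49 to 0.84, limma adjusted p = 0.703), Con-FMT 0.29 higher than HS (95% interval -0.37 to 0.96, limma adjusted p = 0.531), and HS+A10 0.64 lower than HS (95% interval -1.30 to 0.03, limma adjusted p = 0.220). The 2 transfer groups kept means of 25.2 ± 6.28 and 27.3 ± 6.82 RPKM, against 22.3 ± 6.11 in HS and 56.3 ± 19.95 in Con (SD, n = 3). The call in HS against Con was lost without Con and A10 replicates 3 (Ppp1r3b -1.25, limma adjusted p = 0.0615) and in a fit of the 2 groups alone (limma adjusted p = 0.0516), whereas that in HS+A10 against A10 held in all alternatives (limma adjusted p 0.00107 to 0.0134).

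Ppp1r3c, another targeting subunit (PTG), had a different order. It stood at 35.4, 47.9 and 40.8 RPKM in Con, 42.1, 41.4 and 43.0 RPKM in A10 and 60.3, 31.8 and 44.2 RPKM in HS. It stood at 18.2, 32.6 and 38.9 RPKM in HS+A10, 27.2, 31.1 and 13.6 RPKM in A10-FMT and 27.3, 13.9 and 7.72 RPKM in Con-FMT. The transfer groups lay wholly below HS, by 1.54 in Con-FMT (SE 0.38, 95% interval -2.36 to -0.73, limma adjusted p = 0.00951) and by 0.93 in A10-FMT (95% interval -1.74 to -0.12, limma adjusted p = 0.0869), of which only the first was called. A10-FMT and Con-FMT differed by 0.61 (95% interval -0.20 to 1.42, limma adjusted p = 0.289), so a difference between the transfers was not shown. The lowest Con-FMT library was replicate 3, which held the pancreatic markers, and without it Ppp1r3c was 1.13 lower in Con-FMT than in HS (limma adjusted p = 0.0396; Ppp1r3c log2 change -1.13). In a fit of the 2 groups alone the limma adjusted p was 0.0734.

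The ratio of Ppp1r3b to Ppp1r3c, also chosen after the values were seen, was 1.33 ± 0.283 in Con and 1.12 ± 0.331 in A10, and 0.547 ± 0.271 in HS and 0.478 ± 0.0366 in HS+A10 (SD, n = 3). HS did not overlap with Con, nor HS+A10 with A10 (exact permutation p = 0.1 each, the smallest possible). In A10-FMT it was 1.22 ± 0.728 and in Con-FMT 2.34 ± 1.92, with 4.53 in Con-FMT replicate 3.

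Ppp1r3g, a further targeting subunit of protein phosphatase 1, was low in every library. It stood at 0.03, 0.65 and 0.37 RPKM in Con, 1.43, 0.52 and 1.12 in A10, 0.06, 0.64 and 0.13 in HS, 0.67, 0.34 and 0.14 in HS+A10 and 0.31, 0.61 and 1.28 in A10-FMT. In Con-FMT it stood at 0.70, 2.66 and 1.27 RPKM. Con-FMT lay wholly above HS, and all other compared groups overlapped. Without the filter on low genes it was 0.95 higher in Con-FMT than in HS (Ppp1r3g, limma adjusted p = 0.0458) and was called in no other comparison.

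Slc2a2 codes for GLUT2, the facilitative transporter through which glucose enters and leaves the hepatocyte. It stood at 41.0, 71.8 and 53.8 RPKM in Con and at 117, 67.0 and 82.7 RPKM in A10. It stood at 79.7, 77.2 and 72.9 RPKM in HS and at 124, 118 and 121 RPKM in HS+A10. In A10-FMT it was at 129, 99.1 and 108 RPKM and in Con-FMT at 92.9, 64.8 and 80.1 RPKM. The HS+A10 and A10-FMT libraries lay wholly above the HS and Con-FMT libraries, whereas Con-FMT and HS overlapped.

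No difference of Slc2a2 was called on the deposited scale in the fit of all 18 libraries. HS was 0.49 higher than Con (95% interval 0.07 to 0.92, limma adjusted p = 0.0946). HS+A10 was 0.48 higher than A10 (95% interval 0.05 to 0.90, limma adjusted p = 0.105), and neither of these pairs of groups overlapped. HS+A10 was 0.65 higher than HS (SE 0.20, 95% interval 0.23 to 1.08, limma adjusted p = 0.0591) and A10-FMT 0.54 higher than HS (95% interval 0.11 to 0.96, limma adjusted p = 0.0630), while Con-FMT was 0.03 higher than HS (95% interval -0.39 to 0.46). A10-FMT exceeded Con-FMT by 0.50 (95% interval 0.08 to 0.93, limma adjusted p = 0.0938), and A10 0.67 higher than Con (95% interval 0.24 to 1.09, limma adjusted p = 0.197). With every library at the same median Slc2a2 was called in HS+A10 against HS (0.70, limma adjusted p = 0.0234), in A10-FMT against HS (0.73, limma adjusted p = 0.0169) and in A10-FMT against Con-FMT (0.58, limma adjusted p = 0.0286). In this fit the calls thus depended on the scaling. On the deposited scale a fit of HS+A10 and HS alone also called Slc2a2, so the call there depended on the fit as well.

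Gckr codes for the glucokinase regulatory protein, which holds the glucose-phosphorylating enzyme of the hepatocyte inactive in the nucleus. Its group means lay between 40.2 ± 2.93 RPKM in Con and 53.7 ± 7.19 RPKM in A10 (SD, n = 3), with single libraries from 37.1 to 61.8 RPKM. A10 lay wholly above Con by 0.40 (95% interval 0.12 to 0.68, limma adjusted p = 0.223), and both transfer groups wholly above HS, by 0.24 in A10-FMT (limma adjusted p = 0.189) and 0.23 in Con-FMT (limma adjusted p = 0.223). None was called on the deposited scale. At the same median Gckr was called in A10-FMT against HS (0.43, limma adjusted p = 0.0225) and in Con-FMT against HS (0.34, limma adjusted p = 0.0399), and its difference of 0.11 in HS against Con became -0.07.

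Pklr codes for the liver and red-cell pyruvate kinase, which closes glycolysis and is a known target of ChREBP, the factor that binds the carbohydrate response element. It stood at 45.5, 67.3 and 54.6 RPKM in Con and at 124.9, 57.6 and 82.6 RPKM in A10. It stood at 21.6, 45.5 and 35.1 RPKM in HS and at 38.7, 50.3 and 30.9 RPKM in HS+A10. In A10-FMT it was at 76.4, 64.5 and 93.1 RPKM and in Con-FMT at 68.9, 37.7 and 78.9 RPKM. HS+A10 lay wholly below A10 and A10-FMT wholly above HS, while HS met Con at 45.5 RPKM and Con-FMT overlapped with HS.

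Pklr was 1.08 lower in HS+A10 than in A10 (log2 change -1.08, SE 0.32, limma adjusted p = 0.0267) and 1.22 higher in A10-FMT than in HS (SE 0.32, 95% interval 0.53 to 1.90, limma adjusted p = 0.0153), a ratio of means of 2.29. In HS against Con it changed by -0.74 (95% interval -1.42 to -0.06, limma adjusted p = 0.117), and Con-FMT was 0.84 higher than HS (95% interval 0.15 to 1.52, limma adjusted p = 0.0714), a difference that was called at the same median (0.95, limma adjusted p = 0.040). A10-FMT and Con-FMT differed by 0.38 (95% interval -0.30 to 1.06, limma adjusted p = 0.453), so the transfers were not shown to differ in Pklr. The call in HS+A10 against A10 was lost without A10 replicate 1 or 3 or HS+A10 replicate 1 or 3 (Pklr, limma adjusted p 0.0668 to 0.117) and without Con and A10 replicates 3 together (Pklr -1.09, limma adjusted p = 0.0870), and that in A10-FMT against HS without HS replicate 1 (0.0551) or A10-FMT replicate 3 (0.0642). The blood marker Hbb-bs was at 183, 1895 and 1094 RPKM in the HS libraries in which Pklr was at 21.6, 45.5 and 35.1 RPKM, and the part of red-cell RNA in Pklr was not tested. Mlxipl, which codes for ChREBP, fell by 0.77 in HS against Con (log2 change -0.77, limma adjusted p = 0.00334), fell by 0.83 in HS+A10 against A10 (limma adjusted p = 0.00117) and rose by 0.53 in A10-FMT against HS (limma adjusted p = 0.0168). Against HS, Mlxipl was 0.27 higher in Con-FMT (limma adjusted p = 0.183) and 0.25 higher in HS+A10 (limma adjusted p = 0.310), neither called. The part of ChREBP in the Pklr differences was not tested.

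Pfkfb1 codes for the liver form of the enzyme that makes and removes fructose-2,6-bisphosphate, the activator of the phosphofructokinase step. It stood at 12.6, 17.4 and 16.7 RPKM in Con, 16.0, 9.11 and 10.1 RPKM in A10 and 9.04, 12.1 and 12.3 RPKM in HS. It stood at 9.57, 7.46 and 8.75 RPKM in HS+A10, 7.15, 9.20 and 8.40 RPKM in A10-FMT and 14.8, 12.6 and 23.5 RPKM in Con-FMT. A10-FMT lay wholly below Con-FMT, and HS wholly below Con. Pfkfb1 was 0.92 lower in A10-FMT than in Con-FMT (log2 change -0.92, SE 0.22, 95% interval -1.38 to -0.45, limma adjusted p = 0.00899), and the 2 transfers lay on opposite sides of HS, at -0.39 (limma adjusted p = 0.198) and 0.53 (limma adjusted p = 0.0915), neither called. At the same median Pfkfb1 was called higher in Con-FMT than in HS (0.63, limma adjusted p = 0.0418). In HS against Con the change was -0.45 (95% interval -0.91 to 0.01, limma adjusted p = 0.157). The highest Con-FMT library was replicate 3 with the pancreatic markers, without which the Pfkfb1 difference between the transfers was -0.67 (limma adjusted p = 0.0388), and in a fit of the 2 groups alone the limma adjusted p was 0.0512.

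The ratio of Pklr to Pfkfb1, chosen after the values were seen, was 9.59 ± 2.25 in A10-FMT, 7.44 ± 0.988 in A10 and 4.77 ± 1.73 in HS+A10, against 3.67 ± 0.868 in Con-FMT, 3.58 ± 0.297 in Con and 3.00 ± 0.700 in HS (SD, n = 3). A10-FMT did not overlap with Con-FMT or HS, nor A10 with Con (exact permutation p = 0.1 each, the smallest possible), and HS+A10 overlapped with HS (exact permutation p = 0.2).

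**Figure D5:**
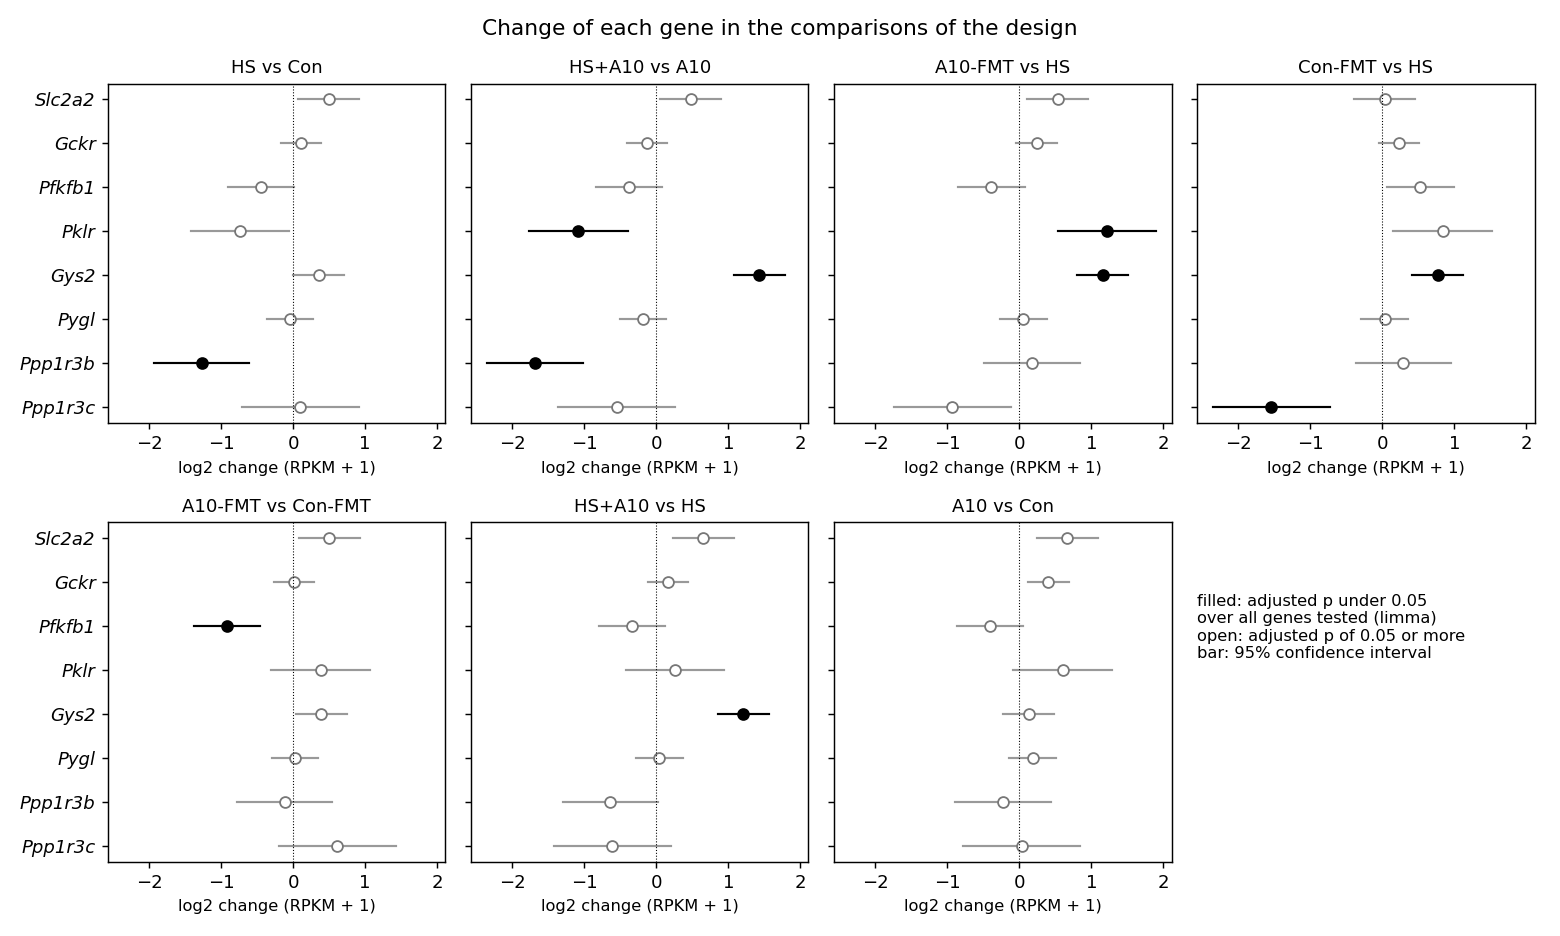
Difference of mean log2(RPKM + 1) (x axis) for the 8 tested genes (y axis) in each of the 7 comparisons, with 95% intervals; filled points had a limma adjusted p under 0.05. Gys2 is filled to the right in 4 panels, Ppp1r3b to the left in 2, and Pygl is open in all 7.

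Other genes of the pathways were taken from 7 lists on sugar transporters, glycolysis, fructose and galactose entry, the pentose phosphate pathway, glycogen synthesis, glycogen breakdown, and protein phosphatase 1 subunits, which hold none of the 9 genes. Of 89 genes 65 were tested. In HS against Con 8 rose and 2 fell (15.4%), with a median log2 change of 0.12 beside 0.14 for all genes. This count of 10 was 4 without Con and A10 replicates 3 and 4 in a fit of the 2 groups alone, and without these replicates the count of 13 in HS+A10 against A10 was 8. In HS+A10 against A10 7 rose and 6 fell (20%), in A10-FMT against HS 4 rose and 14 fell (27.7%), and in Con-FMT against HS 4 rose and 12 fell (24.6%), with medians of 0.03, -0.15 and -0.13 beside 0.04, -0.16 and -0.12 for all genes. In A10-FMT against Con-FMT 4 rose and 5 fell (13.8%), in HS+A10 against HS 3 rose and none fell (4.62%), and in A10 against Con none was called and the median was 0.09 beside 0.07. At the same median the splits were 4 higher and 2 lower in HS against Con, 5 and 10 in HS+A10 against A10, 10 and 6 in A10-FMT against HS, 8 and 8 in Con-FMT against HS, 8 and 4 in A10-FMT against Con-FMT and 7 and 0 in HS+A10 against HS. On the deposited scale these shares and medians were near those of all genes in most comparisons. Of the genes named next, the calls in HS against Con of Gaa, Prkacb, Ppp1cb, Tkt and Pgd and those in HS+A10 against A10 of Prkacb and Pkm were lost without Con and A10 replicates 3 (limma adjusted p 0.0542 to 0.153), and the other named calls in these 2 comparisons were not.

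Among glycogen genes, Ugp2, which makes the UDP-glucose that Gys2 uses, rose by 0.76 in HS against Con (limma adjusted p = 0.00174), by 0.61 in HS+A10 against A10 (limma adjusted p = 0.00390), by 0.43 in A10-FMT against HS (limma adjusted p = 0.0249) and by 0.43 in Con-FMT against HS (limma adjusted p = 0.0248). It was 1 of 8 tested genes of glycogen synthesis called in the first 3 of these comparisons, and in Con-FMT against HS Gsk3b, the kinase that inhibits glycogen synthase, fell by 0.37 (limma adjusted p = 0.00393). Of 11 tested genes of glycogen breakdown 5 (45.5%, beside 23.1% of all genes tested) were called in A10-FMT against HS, among them Gaa, the lysosomal glucosidase (-0.61, limma adjusted p = 7.71e-04). Gaa also fell in Con-FMT against HS (-0.30) and rose in HS against Con (0.31), both calls being lost at the same median. Con-FMT against HS called 4 of 11 (36.4%, beside 23.6% of all genes) and A10-FMT against Con-FMT 3 of 11 (27.3%, beside 18.8%). HS against Con called 2 of 11 (18.2%, beside 17.7% of all genes). HS+A10 against A10 and against HS called 1 each (9.09%, beside 20.9% and 7.32%), Prkacb, a catalytic subunit of protein kinase A (0.21 and 0.22). Prkacb was also called in HS against Con (0.26), in A10-FMT against Con-FMT (0.21) and, lower, in Con-FMT against HS (-0.27). Of 4 tested phosphatase 1 genes 1 was called in HS against Con (Ppp1cb, 0.28), 1 in A10-FMT against HS (Ppp1cb, -0.27) and 1 in HS+A10 against HS (Ppp1cc, 0.32), and both Ppp1cb calls were lost at the same median.

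Of 20 tested glycolysis genes 7 were called in A10-FMT against HS (1 higher, 6 lower) and 7 in Con-FMT against HS (2 higher, 5 lower). Of all genes tested, 2.09% were called higher and 21% lower in the first comparison, and 4.61% and 19% in the second. At the same median fewer genes of the 7 lists together were called lower in both, as given above. Glycolysis genes that fell in both included Tpi1 (triose phosphate isomerase, -0.54 and -0.53) and Pgk1 (phosphoglycerate kinase, -0.50 and -0.39). Pfkfb3, the inducible relative of Pfkfb1, rose in both, by 1.24 (limma adjusted p = 0.0258) and by 2.87 (limma adjusted p = 1.27e-04), and was lower in A10-FMT than in Con-FMT by 1.63 (log2 change -1.63, limma adjusted p = 0.00695), which called 4 of 20 genes, all lower. Pfkfb3 levels were 2.01, 5.23 and 2.66 RPKM in HS, 5.35, 6.37 and 18.4 RPKM in A10-FMT and 28.6, 29.1 and 29.1 RPKM in Con-FMT. Pkm, the pyruvate kinase of other cell types, rose by 0.63 in HS against Con (limma adjusted p = 0.00288), 1 of 2 called genes there, and by 0.35 in HS+A10 against A10 (limma adjusted p = 0.0415), 1 of 3. It fell by 0.64 in A10-FMT against HS (limma adjusted p = 0.00207) and was 0.52 lower in A10-FMT than in Con-FMT (log2 change -0.52, limma adjusted p = 0.00623).

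Among 5 tested transporters Slc2a5, a fructose transporter, rose by 0.76 in HS against Con (limma adjusted p = 0.00249), by 1.41 in HS+A10 against A10 (limma adjusted p = 2.29e-05) and by 0.77 in HS+A10 against HS (limma adjusted p = 0.00562). Its level in A10-FMT also exceeded that in Con-FMT by 0.86 (limma adjusted p = 6.74e-04). Against HS, Slc2a5 fell by 0.54 in Con-FMT (limma adjusted p = 0.0107) and was 0.32 higher in A10-FMT (limma adjusted p = 0.0965), which was not called. Slc2a1, the widespread glucose transporter GLUT1, was 0.75 lower in both transfer groups than in HS (log2 changes -0.75, limma adjusted p = 0.00140 in A10-FMT and 8.15e-04 in Con-FMT). Of 9 tested pentose phosphate genes 2 fell in HS against Con and 3 in HS+A10 against A10, Tkt (transketolase, -0.84), Pgd (-0.81) and G6pdx (-0.89), and none was called in the transfer comparisons. Of 8 tested genes of fructose and galactose entry 1 to 3 were called in 4 comparisons, with Pmm1, a phosphomannomutase, rising by 0.85 in HS against Con and by 1.19 in HS+A10 against A10. Pmm1 fell by 0.47 in A10-FMT against HS (limma adjusted p = 0.0152) and by 0.67 in Con-FMT against HS (limma adjusted p = 0.00171).

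Genes of the response to fasting and insulin stand beside the members as a description. Of 16 tested 6 (37.5%) were called in HS against Con (5 higher, 1 lower), beside 17.7% of all genes tested. In HS+A10 against A10 8 (50%) were called (4 higher, 4 lower), beside 20.9%. There were 3 in A10-FMT against HS (18.8%, beside 23.1%) and 3 in Con-FMT against HS (18.8%, beside 23.6%). The numbers were 5 in A10-FMT against Con-FMT (31.2%, beside 18.8%), 2 in HS+A10 against HS (12.5%, beside 7.32%) and 1 in A10 against Con (6.25%, beside 0.0686%). Pck1, a gluconeogenic enzyme that insulin represses, was at 311 RPKM in Con, 548 in A10, 1023 in HS, 1079 in HS+A10, 774 in A10-FMT and 1234 in Con-FMT (means, n = 3). Igfbp1, another gene that insulin represses, was at 36.2 RPKM in HS, 9.46 in HS+A10, 17.7 in A10-FMT and 168 in Con-FMT. In HS+A10 against A10 Pck1 rose by 0.96 (limma adjusted p = 1.98e-04), whereas Igfbp1 changed by -2.20 (limma adjusted p = 0.00379). Both were lower in A10-FMT than in Con-FMT (log2 changes -0.68, limma adjusted p = 0.00234, and -3.33, limma adjusted p = 2.83e-04). Pck1 and Igfbp1 thus did not give a single measure of nutritional state. Feeding state at collection was not tested.

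Likeness was measured as Pearson's r of log2 values over the 18 libraries, a description without a test, since libraries of a group share their treatment. Over all 18 values Gys2 was most like Cyp2e1 (0.962) and the clock output factor Tef (0.958), Slc2a2 most like the bile acid transporter Slc10a1 (0.947) and Adcy9 (0.946), and Pklr most like Hgfac (0.882) and its overlapping neighbour Hcn3 (0.873). Gckr was most like Fah (0.876) and Macrod1 (0.828), Pfkfb1 like Rbbp8 (0.841) and Rfx1 (0.827), Pygl like Cers2 (0.885) and Mindy2 (0.849), Ppp1r3c like Cldn1 (0.924) and Eml3 (0.894), and Ppp1r3b like Cyp2c29 (0.889). With group means taken out the nearest genes were Surf2 (0.922) and Plbd2 (0.893) for Gys2, Fkbp14 (0.912) and Csk (0.910) for Pklr, Colec10 (0.911) and Slc10a1 (0.894) for Slc2a2, and Asl (0.908) and Prodh (0.905) for Pfkfb1. Among the members themselves the highest r over 18 libraries was 0.764 (Slc2a2 with Gys2) and the lowest -0.678 (Gys2 with Ppp1r3b), and with group means taken out these were 0.618 and -0.09, the highest then being 0.799 (Pklr with Pygl).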

How the data were processed

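Livers of mice in 6 groups, with 3 libraries each, were profiled by RNA-seq with oligo(dT)-selected RNA. The authors mapped reads to reference genes with SOAPaligner, computed RPKM per gene and deposited these RPKM values with 2 decimals, while the submitters' processing notes name Bowtie 0.12.2 and mm10. Pooling of livers and use of strand are not given in the sources used here. The table lists 19057 genes, of which 26 symbols had been turned into dates. RPKM were used as deposited, without further scaling, as log2(RPKM + 1), and the 10204 genes whose mean reached 1 RPKM entered 1 fit of all 18 libraries (limma 3.58.1 in R, variance trend, 1 mean per group). P-values are two-sided and Benjamini-Hochberg adjusted over all genes tested, with calls under 0.05. Since values are RPKM, no count model was run, and the number of reads per library is unknown, so no counting interval was computed. The test was checked on simulated data with independent libraries. The simulation held no shift of whole libraries, no in-between replicates and no pancreatic RNA, so it does not bear on these features.

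Exact two-sided permutation tests of 3 libraries against 3 cannot go below p = 0.1. Alternatives changed the pseudocount, filter, scaling, libraries and variance trend. Named genes are the members, up to 3 called genes in each direction from each pathway list and comparison, genes of clock and nutrition lists beside a result, and the 2 genes most like each member in each of 2 ways. Some genes that this rule gives are not reported here. The members and lists were chosen with earlier results of these data known.

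Cell type lists were checked in every comparison. Adipocyte and skeletal muscle markers had no tested gene, and none of the 13 pancreatic acinar genes, nor the 1 tested islet gene, was called. The acinar genes were high in Con-FMT replicate 3 alone, which widened their spread. Their median log2 change in Con-FMT against HS was 3.40, so the lack of calls does not show Con-FMT free of pancreatic RNA. Of the 4 tested genes each, endothelial markers had at most 3 called (HS+A10 against A10), stellate and fibroblast markers 2, and blood markers 3 (Con-FMT against HS, lower). Macrophage markers had 3 of 5 called, lower, in A10-FMT against HS, cholangiocyte markers at most 1 of 2, and hepatocyte markers at most 3 of 6. These counts stand beside the shares of all genes tested that are given for each comparison above.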

Additional observations from a re-analysis of the deposited data

Results flagged for a closer look

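The effect of diet and STZ on Dbp, a clock output gene that is not among the 9 genes described, was a log2 difference of 4.63 with AOS (HS+A10 against A10) and 0.72 without it (HS against Con), on the log2(RPKM + 1) scale. The 2 effects differed by 3.92 ± 0.50 (SE, n = 3 in each of the 4 groups; limma interaction test, adjusted p = 0.00978). It was marked because the same treatment gave different effects in mice with and without AOS by a test of that difference. No such difference was called for any of the 8 tested members. Dbp was also higher than in HS by 4.81 in A10-FMT and by 4.34 in Con-FMT (log2). The hour of collection is not given, so collection time and group cannot be told apart for Dbp either.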

How the results depend on the processing

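Over 64 differences (8 genes, 7 comparisons and the interaction) 1104 values under alternatives were computed, and 1026 kept direction and side of the threshold, 12 lost a call, 23 gained one and 43 changed sign, 33 of these with 1 library left out; none of the differences that changed sign was called in either form. Members called in HS against Con numbered 0 instead of 1 in a fit of the compared groups alone, and also without Con and A10 replicates 3, a setting added after seeing the data. With every library at the same median the number called was 4 in A10-FMT against HS, 5 in Con-FMT against HS, 3 in A10-FMT against Con-FMT and 2 in HS+A10 against HS, and with quantile normalization 4 in A10-FMT against HS, 3 in A10-FMT against Con-FMT and 2 in HS+A10 against HS. Scaling to the same sum without the 10 most abundant genes gave 2 in HS+A10 against HS, and the fit of the compared groups alone gave 1 in Con-FMT against HS. In the latter fit the count of 1 stood for another member in HS+A10 against HS (Slc2a2 in place of Gys2) and in A10-FMT against Con-FMT (Gys2 in place of Pfkfb1). With 1 library left out, members called ranged from 1 to 2 in HS against Con and in A10-FMT against HS, from 2 to 3 in HS+A10 against A10, from 2 to 4 in Con-FMT against HS and from 0 to 1 for the interaction.

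Pathway list genes called in HS against Con were 6 at the same median, 4 in the fit of the compared groups, 5 in a fit of the 12 libraries of Con, HS, A10-FMT and Con-FMT, and 4 without Con and A10 replicates 3, which left 8 in HS+A10 against A10 and 1 in HS+A10 against HS. The fit of the compared groups gave 10 in A10-FMT against HS, 6 in Con-FMT against HS, 2 in A10-FMT against Con-FMT, 0 in HS+A10 against HS and 1 in A10 against Con. In HS+A10 against HS 7 were called at the same median, 8 by quantile normalization, 6 without the 10 most abundant genes and 1 without a filter. With 1 library left out, pathway list genes called ranged from 4 to 10 in HS against Con, 7 to 12 in HS+A10 against A10, 11 to 16 in A10-FMT against HS, 13 to 17 in Con-FMT against HS, 5 to 9 in A10-FMT against Con-FMT, 1 to 6 in HS+A10 against HS and 0 to 2 in A10 against Con.

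Gckr in HS against Con changed to -0.070 at the same median and -0.012 by quantile normalization, and Ppp1r3c to -0.086 and -0.033. Ppp1r3c in A10 against Con changed to -0.042 and -0.041. The interaction of Slc2a2 became 0.11, 0.083 and 0.018 at the same median, by quantile normalization and without the 10 most abundant genes, and that of Pfkfb1 became -0.062 without Con and A10 replicates 3. With 1 library left out, differences that changed sign ran in HS against Con from -0.13 to 0.32 for Ppp1r3c and from -0.14 to 0.086 for Pygl, in HS+A10 against A10 from -0.23 to 0.028 for Gckr, in A10-FMT against HS from -0.065 to 0.39 for Ppp1r3b and from -0.072 to 0.15 for Pygl, and in Con-FMT against HS from -0.12 to 0.18 for Pygl and from -0.086 to 0.17 for Slc2a2. They ran in A10-FMT against Con-FMT from -0.074 to 0.089 for Gckr, from -0.26 to 0.097 for Ppp1r3b and from -0.12 to 0.18 for Pygl, and in HS+A10 against HS from -0.027 to 0.49 for Pklr and from -0.086 to 0.14 for Pygl. They ran in A10 against Con from -0.029 to 0.28 for Gys2, from -0.50 to 0.021 for Ppp1r3b and from -0.066 to 0.15 for Ppp1r3c, and for the interaction from -0.075 to 0.30 for Pfkfb1 and from -0.21 to 0.20 for Slc2a2. The cause of these shifts was not tested.

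Replicate numbers did not pair the samples: in 15 pairs of groups, correlations of same-numbered deviations ran from -0.126 to 0.262, and every sample correlated best with its own number in 2 pairs of groups only. With the replicate block the members called were the same in number in all comparisons, and pathway list genes called in HS+A10 against HS were 1 instead of 3. Depth limits low genes most: Ppp1r3g was tested only without the filter.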
